A study of Mus musculus with 47 samples.

Results

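The genes described here are 45 components of the bone morphogenetic protein (BMP) and transforming growth factor beta (TGF-beta) pathways, measured by RNA-seq in mouse cranial neural crest cells. They were picked by gene symbol from a table of 38215 genes, and each symbol matched 1 gene. The set holds 16 ligands, 9 receptors, 6 signal-carrying Smads, 2 inhibitory Smads, 4 Id genes, 7 extracellular antagonists or modulators, and the pseudoreceptor Bambi. Of the 45, 44 passed the filter on low counts and were tested. The remaining gene, Bmp10, a ligand best known from the heart, had 0 counts in all 47 libraries, which allows up to 3 counts in a library for counting error alone.

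BMPs, growth and differentiation factors (Gdf), activins (dimers of the proteins made by Inhba and Inhbb) and TGF-betas are secreted dimers that bring type I and type II serine/threonine kinase receptors together on the receiving cell. The activated type I receptor phosphorylates Smad1, Smad5 and Smad9 for BMPs, or Smad2 and Smad3 for activins and TGF-betas; these enter the nucleus with Smad4 and switch on targets such as the Id genes and the feedback inhibitors Smad6, Smad7 and Bambi. In the embryonic face these signals take part in outgrowth, in the patterning of the jaws and in cartilage and bone formation, and secreted antagonists such as noggin, chordin and follistatin limit where they act.

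The 47 libraries formed 16 groups. Wild-type neural crest progenitors came from embryos at E8.5 (n = 3). Wild-type postmigratory cells came from the frontonasal process (FNP), the maxillary process (Mx), the mandibular process (Md) and the second pharyngeal arch (PA2) at E10.5 (n = 3, except Mx with n = 2) and at E11.5 (n = 3 each). Cells with a conditional knockout of Ezh2 (Ezh2cKO), the enzyme that places the repressive Polycomb mark on histone H3, came from the same 4 places at E10.5 (n = 3 each). A Hoxa2 overexpression group (HoxA2OE, n = 3) held Md cells at E10.5, and a temporal Hoxa2 knockout group (Hoxa2TempMut, n = 3) and its Control (n = 3) held PA2 cells at E11.5. The driver and alleles behind the knockouts and the overexpression, the timing of the Hoxa2 deletion, the genotype of Control and the mouse strain were not given in the sources used here. Labels do not say whether replicates came from separate litters, and the p-values therefore reflect only the spread among libraries, which may be technical.

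Library totals ran from 18820510 to 49808808 counts, and mitochondrial genes took up to 45.9% of them. HoxA2OE replicate 1 stood apart from the other libraries of its group and had the highest mitochondrial share; E8.5 replicate 1, FNP replicate 3 at E11.5 and FNP replicate 1 at E10.5 also stood apart, to a smaller degree. The summed level of 7 crest mesenchyme markers was 1065 to 2831 CPM (counts scaled to a library total of 1e6) in the postmigratory libraries and 269 to 362 CPM at E8.5. The E8.5 libraries held more RNA of some other cell types than the wild-type libraries of E10.5. For 4 neural tube markers the sums were 281 to 367 against 20.6 to 31.5 CPM. Epithelial markers (6 genes) summed to 116 to 142 against 2.01 to 11 CPM. Endothelial markers (5 genes) summed to 131 to 144 against 1.68 to 7.23 CPM, and erythroid markers to 611 to 984 against 24.9 to 423 CPM. Neuronal markers at E8.5 (54.5 to 63.1 CPM) lay between Mx (138 to 159) and the other places of E10.5 (9.73 to 14.3). Muscle and cranial mesoderm markers (4.22 to 5.32 CPM) lay between FNP (9.57 to 9.93) and the other places (0.0491 to 2.5). Leukocyte markers overlapped between the stages. In bulk samples, fewer cells of a type and less RNA per cell cannot be told apart.

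Levels within the set ran from near 0 to abundant. Of the 44 tested genes, 25 had a mean over 5 CPM in every wild-type group. Divided by exon length and averaged over the wild-type libraries, the highest levels belonged to the secreted glycoprotein Fstl1 (70.4 CPM per kilobase), Id2 (65.3), the type I BMP receptor Bmpr1a (61.2), the BMP-binding modulator Twsg1 (57), the type II BMP receptor Bmpr2 (56.8), the type I TGF-beta receptor Tgfbr1 (45) and Smad5 (42). The highest ligands on this per-length scale were Bmp4 (14.7), Tgfb2 (12.5) and Gdf11 (10.7), all below the 7 genes named above. Chrd, which encodes chordin, Nog, which encodes noggin, Tgfb1 and Inhbb stood at 0.236, 0.214, 0.174 and 0.0878 CPM per kilobase.

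At E10.5, position was tested across FNP, Mx, Md and PA2. Of the 44 genes, 24 differed among the 4 places, beside 27% of all 20560 genes tested. Against the mean of the other 3 places, 18 genes differed in FNP (13 higher, 5 lower; 15.9% and 11.7% of all genes were higher and lower), 8 in Mx (3 higher, 5 lower; 4.37% and 2.91%), 10 in Md (6 higher, 4 lower; 3.14% and 3.68%) and 16 in PA2 (6 higher, 10 lower; 5.59% and 4.94%). Without Md replicate 2 the count for Md was 6, and without FNP replicate 1, which stood apart, that for FNP was 19. These 4 contrasts use the same libraries and are not independent of one another. Neuronal markers (6 genes) summed to 138 to 159 CPM in Mx and 9.73 to 14.3 CPM in the other places, erythroid markers (5 genes) to 24.9 to 50.4 CPM in FNP and 175 to 423 CPM elsewhere, and mitochondrial genes took 28.2 to 33.6% of counts in FNP and 19.9 to 24% elsewhere. Epithelial markers (5.81 to 11 against 2.01 to 3.55 CPM) and endothelial markers (4.86 to 7.23 against 1.68 to 4.21) were highest in FNP. Muscle and cranial mesoderm (9.57 to 9.93 against 0.0491 to 2.5) and neural tube markers (28 to 31.5 against 20.6 to 24.5) were as well. Early or glial crest markers were highest in Mx (61.1 to 76.2 against 5.73 to 27.1 CPM). Crest mesenchyme markers were highest in Mx and lowest in PA2. None of these ranges overlapped, and their part in the differences by place was not tested.

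Among the ligands, Bmp7, of the same subgroup as Bmp5 and Bmp6, descended from FNP to PA2. Its levels were 75.4, 56.5 and 68.5 CPM in FNP, 34.8 and 28.1 in Mx, 9.98, 7.84 and 7.69 in Md, and 3.26, 3.19 and 4.57 in PA2. No library of 1 place overlapped another place. The log2 fold change against the mean of the other 3 places was 2.75 ± 0.13 (SE) in FNP (adjusted p = 1.22e-20, edgeR's quasi-likelihood test) and -2.84 ± 0.18 in PA2 (adjusted p = 1.57e-16). Inhba, which encodes the subunit of activin A, was likewise highest in FNP (3.76, 4 and 4.59 CPM) and lowest in PA2 (0.724, 0.462 and 0.344 CPM), with log2 fold changes of 2.03 ± 0.23 and -1.97 ± 0.33. FNP and PA2 were each separate from the other libraries, while Mx and Md overlapped. Gdf6, a BMP-like factor of joints and skull sutures, followed another order, with 26.1 to 29.6 CPM in FNP, 19.3 to 25.7 in Md, a mean of 11.2 ± 0.706 (SD) in PA2, and 7.07 and 4.94 in Mx. Mx had the lowest libraries, with a log2 fold change of -1.67 ± 0.20 (adjusted p = 3.31e-08). Tgfb2 was also low in Mx, with means of 34.1 ± 3.05 CPM (SD) in FNP, 41.7 ± 4.48 in Md, 17.4 ± 1.71 in PA2 and 13.6 ± 2.19 in Mx. Bmp4 did not pass the test of position at E10.5, with means from 16.2 ± 1.05 CPM in PA2 to 20.4 ± 3.56 in FNP.

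PA2 had its own high genes. Bmper, a secreted protein that binds BMPs, stood at 28.9, 29 and 30.7 CPM in PA2, and at 5.03 to 8.74 CPM in the 8 libraries of the other 3 places. The groups did not overlap, and the log2 fold change was 2.09 ± 0.086 (adjusted p = 1.65e-22). Bmpr1b, a type I BMP receptor known from cartilage condensations, was at 122, 111 and 113 CPM in PA2, at 65.6, 72.1 and 75.6 in Md, at 45.5 and 51 in Mx and at 44.1, 55 and 49.2 in FNP. PA2 and Md were each separate from the rest, while FNP and Mx overlapped, and the log2 fold change in PA2 was 1.06 ± 0.079 (adjusted p = 5.17e-14). Bmp5 was higher there as well (15.5 to 17.7 CPM, log2 fold change 0.73 ± 0.14), as was Gdf5, a ligand of joint formation, at 1.18 to 1.72 CPM (1.79 ± 0.29). Genes that were lower in PA2 included Fst, which encodes the activin antagonist follistatin (0.588 to 0.755 CPM against 1.43 to 3.62 in the other places; -1.66 ± 0.26), Smad9 (3.27 to 3.78 against 5.81 to 9.18 CPM; -1.08 ± 0.16) and Bambi (12.9 to 16.4 against 17.8 to 33.2 CPM; -0.61 ± 0.14). Bambi, a receptor-like protein without a kinase that dampens BMP and TGF-beta signals, was highest in Md, at 30.2, 31.1 and 33.2 CPM (0.86 ± 0.13).

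**Figure D1:**
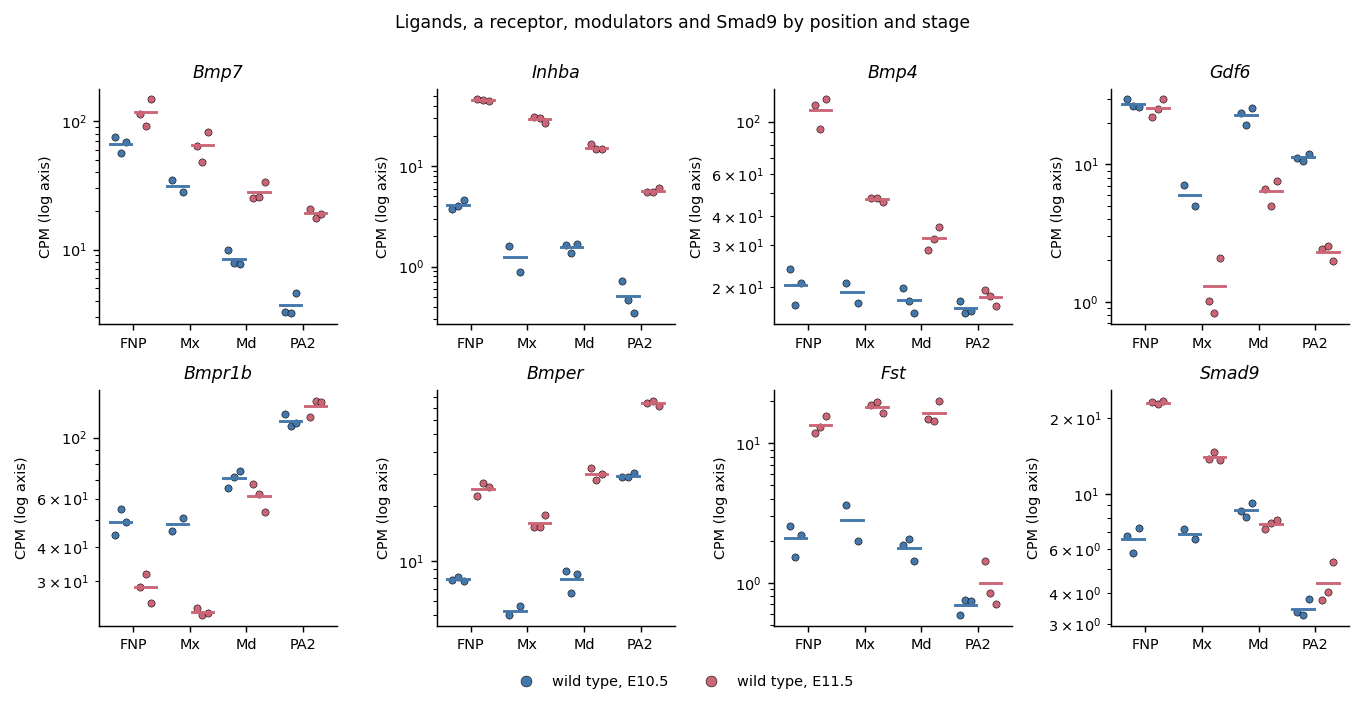
Levels in CPM on a log axis for 8 genes in wild-type neural crest cells of 4 places at E10.5 and E11.5; each point is 1 library and each short line a group mean. Bmp7 descends from FNP to PA2 at both stages, Bmper and Bmpr1b peak in PA2, and the libraries of Bmp4 separate the 4 places at E11.5 but not at E10.5.

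At E11.5, 33 of 44 genes differed among the 4 places, beside 29.4% of all genes. FNP differed from the mean of the others in 30 genes (21 higher, 9 lower; 12.6% and 12% of all genes), Mx in 19 (9 higher, 10 lower; 5.84% and 5.5%), Md in 17 (6 higher, 11 lower; 4.16% and 2.94%) and PA2 in 25 (9 higher, 16 lower; 9.41% and 8.27%). Without FNP replicate 3, which stood apart, the count for FNP was 28.

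Among ligands at E11.5, Bmp4 was at 118, 93.4 and 124 CPM in FNP, 47.6, 47.7 and 45.7 in Mx, 28.8, 32 and 35.9 in Md, and 19.4, 18.3 and 16.7 in PA2. The 4 places did not overlap, and the log2 fold change against the mean of the others was 1.89 ± 0.11 in FNP (adjusted p = 1.38e-17) and -1.61 ± 0.13 in PA2 (adjusted p = 7.1e-13). Bmp7 had the same order of means, from 19.1 ± 1.48 CPM in PA2 through 28.1 ± 4.56 in Md and 64.7 ± 16.9 in Mx to 118 ± 28.7 in FNP, again with no overlap between places. Inhba did too, from 44.6 to 46.5 CPM in FNP to 5.55 to 6.04 CPM in PA2. Gdf6 was at 21.9, 25 and 29.6 CPM in FNP against 0.828 to 7.58 CPM elsewhere (log2 fold change 3.25 ± 0.15, adjusted p = 2.47e-21). FNP thus held the highest libraries of all 4 of these ligands. Tgfb2 was instead highest in Md (143, 142 and 147 CPM; 0.81 ± 0.13), and Gdf10, also called Bmp3b, had its highest mean in Mx (22.7, 12 and 28.7 CPM; 1.99 ± 0.23), where 1 library of 3 lay within the FNP range of 9.45 to 14.8 CPM. Gdf5 was highest in PA2 (6.27, 6.48 and 6.1 CPM) and lowest in FNP (0.31 to 0.426 CPM).

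Genes that lie downstream of BMP receptors were also high in FNP at E11.5. All 4 Id genes, which encode helix-loop-helix proteins that block others of their family and are classic BMP targets, were higher there than in the mean of the other 3 places: Id1 by a log2 fold change of 0.95 ± 0.17, Id2 by 1.24 ± 0.12, Id3 by 1.12 ± 0.11 and Id4 by 1.74 ± 0.23. Id2 was at 177, 185 and 165 CPM in FNP, 103, 115 and 63.8 in Mx, 69.7, 67.3 and 70.2 in Md, and 54.7, 74.6 and 58.9 in PA2. FNP stood apart from the rest, whereas the libraries of the other 3 places overlapped. Smad9 ran from 22.8 to 23.5 CPM in FNP through 13.7 to 14.7 in Mx and 7.24 to 7.82 in Md to 3.76 to 5.33 in PA2, with no overlap between places. Both inhibitory Smads were higher in FNP (Smad6 by 0.57 ± 0.13, Smad7 by 1.19 ± 0.10), as was Bambi (1.24 ± 0.12). In PA2, Smad6, Smad7, Bambi, Id2, Id3 and Id4 were lower and Id1 did not pass the test. Low Id levels were not particular to PA2: all 4 Id genes were also lower in Md, with a median log2 fold change of -0.70 there against -0.71 in PA2. Of 7 other response genes listed outside the 45, 3 were higher and 1 lower in FNP; Msx1 and Msx2, homeobox genes induced by BMPs, were higher by 1.70 ± 0.12 and 2.49 ± 0.13. Epithelial markers summed to 6.55 to 15 CPM over 6 genes in FNP and 2.55 to 6.82 CPM in the other places, and 6 neuronal markers to 54.7 to 69.4 CPM in FNP and Mx and 9.67 to 17.3 CPM in Md and PA2. Their part in these differences was not tested.

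The upstream sequences of Id2 and Smad9 are shown because both genes were higher in FNP at E11.5 and because each holds GGCGCC, a palindrome of the kind bound by BMP-activated Smads. Each run is the 250 bases before the RefSeq transcription start on build GRCm38.p6, 5′ to 3′ on the gene's strand, with GGCGCC in capitals. The Id2 window is chr12:25096093-25096342 (minus strand) and the Smad9 window chr3:54755332-54755581 (plus strand).
Id2: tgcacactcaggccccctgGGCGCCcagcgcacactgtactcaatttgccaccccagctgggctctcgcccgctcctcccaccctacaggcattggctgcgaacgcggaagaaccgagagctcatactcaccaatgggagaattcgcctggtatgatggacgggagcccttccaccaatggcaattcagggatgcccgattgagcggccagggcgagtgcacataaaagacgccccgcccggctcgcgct
Smad9: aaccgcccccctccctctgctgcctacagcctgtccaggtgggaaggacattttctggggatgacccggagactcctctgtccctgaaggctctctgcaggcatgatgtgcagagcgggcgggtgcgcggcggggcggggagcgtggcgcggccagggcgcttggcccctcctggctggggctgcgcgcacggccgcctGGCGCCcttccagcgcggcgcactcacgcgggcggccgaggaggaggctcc
GGCGCC reads the same on both strands and was found in 9.59% of the 32851 RefSeq windows of this length. RefSeq windows could be matched for 30 of the 45 genes, and 8 of these held it: Bmpr1a, Bmpr2, Chrd, Id2, Id4, Smad5, Smad9 and Tgfbr1. The windows of Id3 and Smad6, which were also higher in FNP at E11.5, did not hold it. GGCGCC contains a CG pair, and the matched windows held a median of 22 CG pairs against 6 over all windows. The share over all windows is therefore not a like measure for these genes. A match describes the letters only.

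Some receptors and extracellular modulators were highest in PA2. At E11.5 Bmpr1b was at 119, 136 and 135 CPM in PA2, 67.5, 62.4 and 53.4 in Md, 28.6, 31.7 and 25 in FNP, and 23.8, 22.6 and 22.9 in Mx. The 4 places did not overlap, and the log2 fold change in PA2 was 1.92 ± 0.075 (adjusted p = 1.17e-23). Bmper was at 74.7, 76.3 and 71.9 CPM in PA2 against 15.4 to 32.5 CPM elsewhere (1.69 ± 0.078), and Chrdl1, a chordin-like BMP antagonist, at 8.45 to 10.2 CPM against 2.1 to 8.28 CPM (1.39 ± 0.14). Fst went the other way, at 1.43, 0.848 and 0.707 CPM in PA2 against 11.8 to 20 CPM in the 9 libraries of the other places (log2 fold change -4.00 ± 0.22, adjusted p = 9.48e-19). PA2 and the other places did not overlap for Fst. Tgfbr3, the TGF-beta coreceptor betaglycan, was lowest in FNP, at 29.6 to 36 CPM against 55.1 to 90.9 CPM in the other places (-1.04 ± 0.10). Of 61 further pathway genes, 52 were tested and 18 differed in PA2 at E11.5 (10 higher, 8 lower). Among these, the BMP coreceptor Rgmb was higher by 2.18 ± 0.09 and the BMP antagonist Grem1 by 1.43 ± 0.18.

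From E8.5 to E10.5, 40 of 44 genes passed the test, 20 higher and 20 lower at E10.5, beside 32.1% of all genes higher and 36.3% lower. Without E8.5 replicate 1, which stood apart, 38 passed. Several ligands and antagonists that were high in the progenitors fell. Gdf10 was at 13, 13.2 and 9.45 CPM at E8.5 and at no more than 0.425 CPM in any wild-type library of E10.5. Fst fell to 0.588 to 3.62 CPM, against 49 to 64.1 at E8.5 (log2 fold change -5.13 ± 0.14), Chrdl1 to 1.98 to 6.05 CPM against 45.8 to 67.9 (-4.14 ± 0.13), and Bmp2 to 0.957 to 2.76 CPM against 15.5 to 18.1 (-3.11 ± 0.12). The stages did not overlap for these 4 genes. Genes that rose included Bmpr1b (3.29 ± 0.10), Smad7 (3.07 ± 0.14), Tgfb3 (2.61 ± 0.18), Gdf11 (1.69 ± 0.08), Bmpr2 (1.57 ± 0.081), Smad5 (1.35 ± 0.092) and Bmp4 (1.33 ± 0.13). For Smad7 the E8.5 libraries held 1.72 to 3.49 CPM and the E10.5 libraries 14.7 to 25.6 CPM. Of the 4 Id genes, 3 fell, and Id1 did not pass the test. The neural tube, epithelial, endothelial and erythroid markers given above were lower at E10.5 over the same interval, and their part in these changes was not tested.

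From E10.5 to E11.5 the direction was mostly upward. Averaged over the 4 places, 38 of 44 genes changed, 33 higher and 5 lower, beside 33.7% of all genes higher and 30.1% lower. The median log2 fold change was 0.55 for the 44 genes and 0.025 for all genes. By role, 12 ligands rose and 2 fell, 6 receptors rose and 2 fell, 4 of 6 Smads rose, and all 7 extracellular antagonists or modulators rose. Of the 52 other pathway genes tested, 30 rose and 9 fell. The mitochondrial share was 19.9 to 33.6% at E10.5 and 11.7 to 19.5% at E11.5 in wild type, and the 7 crest mesenchyme markers summed to 1174 to 1750.3 and 2137 to 2831 CPM, with no overlap for either. Neuronal markers in FNP summed to 9.73 to 10.7 CPM at E10.5 and 55.3 to 69.4 CPM at E11.5. In Mx they fell, from 138 to 159 CPM to 54.7 to 63.8 CPM. Endothelial markers were higher at E11.5 in Mx (8.46 to 9.59 against 1.68 to 1.79 CPM). They were also higher in Md (14.3 to 21.8 against 3.31 to 4.21) and PA2 (11.4 to 13.6 against 2.8 to 3.15). Erythroid markers were lower at E11.5 in Mx (35.2 to 47.2 against 336 to 403 CPM). They were also lower in Md (54 to 78.2 against 219 to 283) and PA2 (27.5 to 43.5 against 175 to 423). In FNP both lists overlapped. The part of these shifts in the stage differences was not tested.

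Gdf10 went from 0 to 0.425 CPM over the 11 wild-type libraries of E10.5 to 2.64 to 28.7 CPM over the 12 of E11.5. Bmp3, an atypical ligand of bone, rose to 4.36 to 11.8 CPM, against 0.0944 to 0.615 before (4.88 ± 0.22, adjusted p = 9.69e-22), and Inhba to 5.55 to 46.5 CPM, against 0.344 to 4.59 (3.69 ± 0.15, adjusted p = 7.51e-24). Bmp2, the closest relative of Bmp4, rose to 12 to 20 CPM, against 0.957 to 2.76 (3.02 ± 0.10, adjusted p = 2.25e-26), and its E8.5 libraries had stood at 15.5 to 18.1 CPM. The ranges of the 2 stages did not overlap for any of these 4 genes. Tgfb2 rose by 1.97 ± 0.093, Tgfbr2, the type II TGF-beta receptor, by 1.43 ± 0.062, Bmper by 1.63 ± 0.058 and Fstl1 by 0.90 ± 0.049. The 5 genes that fell were Gdf6 (-1.61 ± 0.11), the activin receptor Acvr2b (-0.88 ± 0.13), Gdf11 (-0.77 ± 0.046), Bmpr1b (-0.48 ± 0.051) and Smad7 (-0.25 ± 0.071).

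**Figure D2:**
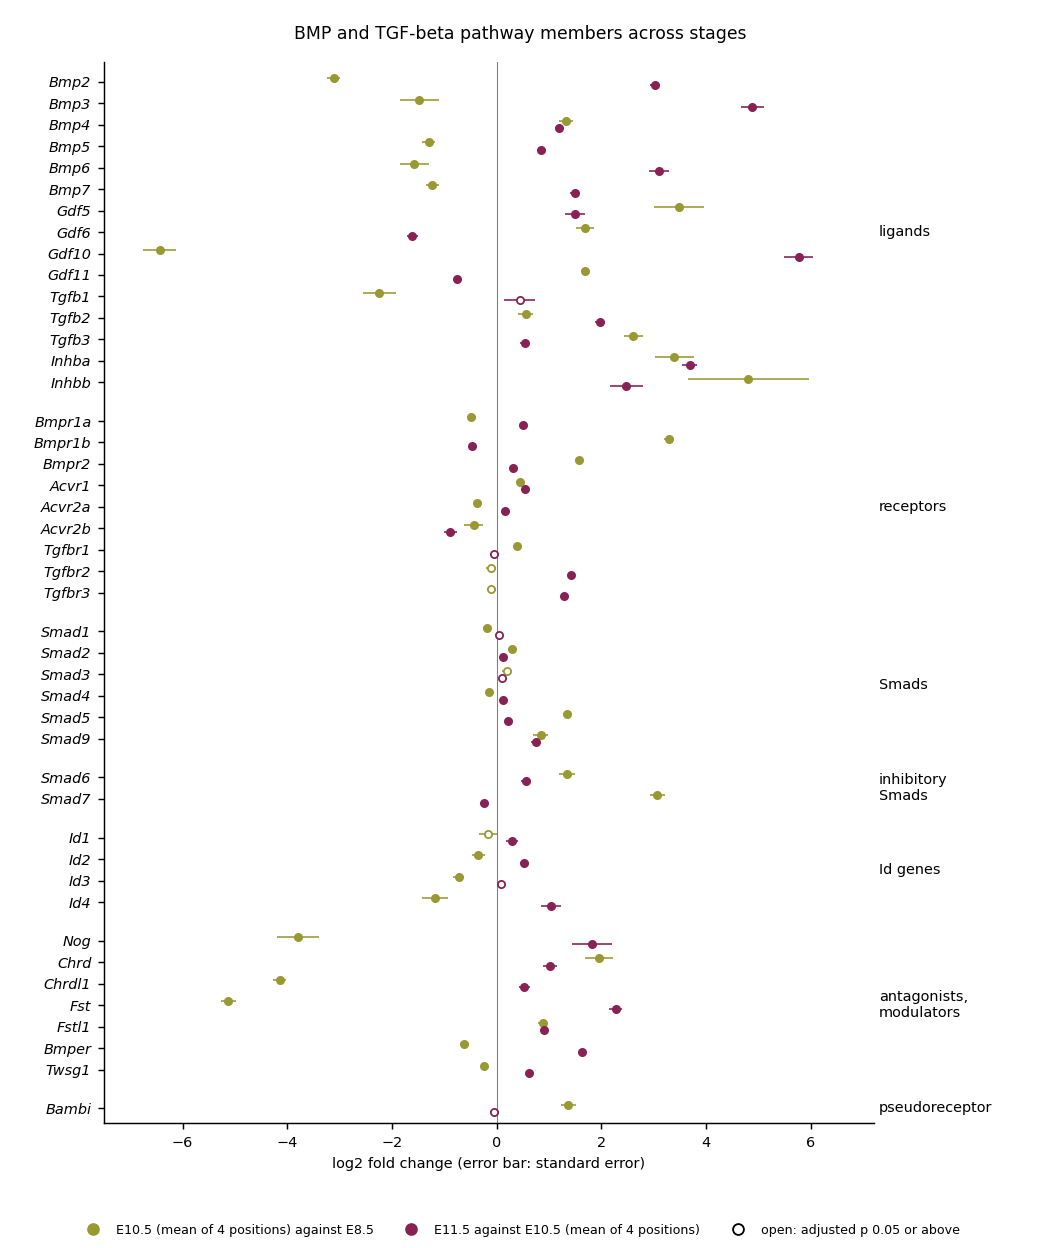
Log2 fold change with its standard error for the 44 tested genes, grouped by role, for the mean of 4 wild-type places at E10.5 against E8.5 (olive) and for E11.5 against E10.5 (purple); open points did not pass an adjusted p of 0.05. Gdf10, Bmp2, Fst and Chrdl1 lie left of 0 in the earlier interval, and 33 of the 38 genes called in the later interval lie right of 0.

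The size of the change from E10.5 to E11.5 depended on place for 23 of the 44 genes, beside 15.6% of all genes (edgeR's quasi-likelihood test of the interaction). Bmp4 rose by log2 fold changes of 2.45 ± 0.16 in FNP, 1.31 ± 0.17 in Mx and 0.87 ± 0.15 in Md, while in PA2 its means were 16.2 ± 1.05 and 18.1 ± 1.36 CPM and it did not pass the test (interaction adjusted p = 6.9e-10). Smad9 rose in FNP (1.81 ± 0.16) and Mx (1.03 ± 0.18) and did not pass the test in Md or PA2 (interaction adjusted p = 6.96e-08). Bambi rose in FNP (1.00 ± 0.16) and fell in Md (-0.73 ± 0.16) and PA2 (-0.69 ± 0.17). Smad7 did likewise (0.62 ± 0.14, -0.75 ± 0.14 and -0.71 ± 0.14). Id2 rose in FNP by 1.38 ± 0.16, from 61.7 to 72.7 CPM to 165 to 185 CPM, and had means of 69.1 ± 9.65 and 69 ± 1.54 CPM in Md. Fst rose in FNP (2.71 ± 0.21), Mx (2.69 ± 0.24) and Md (3.18 ± 0.22), and lay between 0.588 and 1.43 CPM in PA2 at both stages. Gdf6 fell in Mx (-2.22 ± 0.25), Md (-1.83 ± 0.19) and PA2 (-2.27 ± 0.22), and had means of 27.4 ± 1.9 and 25.5 ± 3.9 CPM in FNP. Bmp7 rose by 0.82 ± 0.16 in FNP and by 2.38 ± 0.19 in PA2, where it started lowest.

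**Figure D3:**
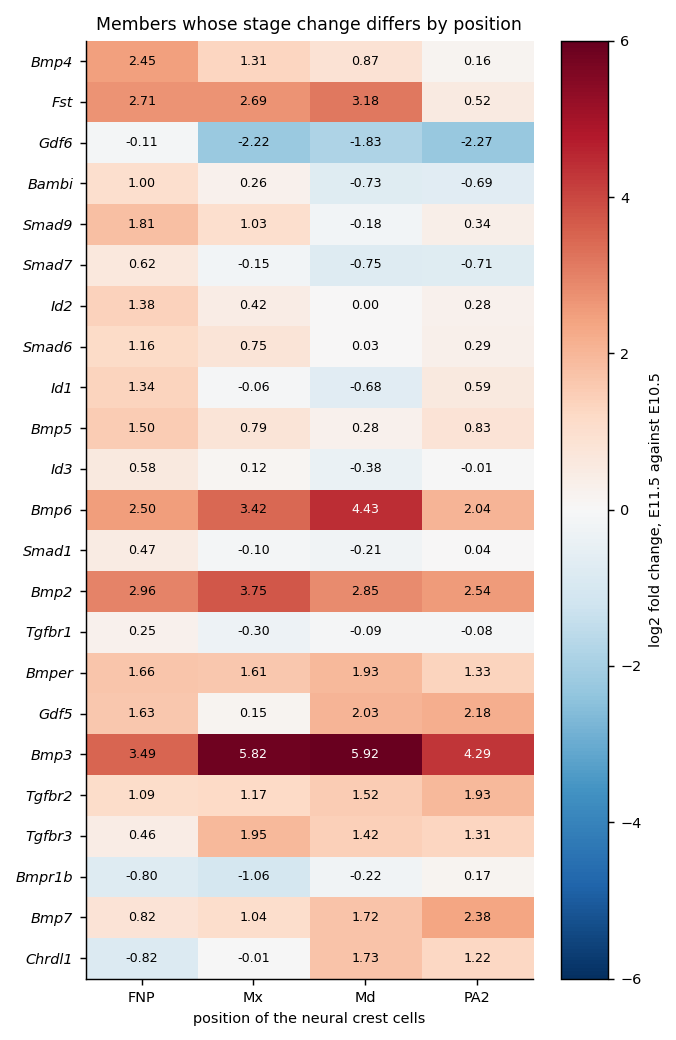
Log2 fold change from E10.5 to E11.5 in each of 4 places (columns) for the 23 genes whose change depended on place. Bmp4, Bambi, Smad9, Smad7 and Id2 have their highest values in FNP, whereas Bmp7, Chrdl1 and Bmpr1b have higher values in PA2 than in FNP.

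By place, 36 genes changed between the stages in FNP (32 higher, 4 lower; 22.7% and 20% of all genes), 29 in Mx (24 higher, 5 lower; 20% and 18.3%), 31 in Md (24 higher, 7 lower; 21.3% and 17%) and 26 in PA2 (21 higher, 5 lower; 21.3% and 18.1%). The FNP count was 35 without replicate 3 of E11.5 and 33 without replicate 1 of E10.5. In FNP both inhibitory Smads, all 4 Id genes and Bambi rose.

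Ezh2 itself was lower in every Ezh2cKO group, with group means of 131 to 144 CPM against 354 to 371 CPM in the wild-type groups. Averaged over the 4 places, 21 of the 44 genes changed, 16 higher and 5 lower, beside 16.1% of all genes higher and 14.7% lower. Ligands made up most of the rises, with 10 higher and Gdf11 lower, and 4 of 7 antagonists or modulators were higher. The 5 lower genes were Bambi (-0.27 ± 0.083), Smad2 (-0.22 ± 0.047), Smad1 (-0.20 ± 0.045), Smad5 (-0.20 ± 0.054) and Gdf11 (-0.19 ± 0.046). No Id gene and neither inhibitory Smad passed the test. Id2, for example, was at 62.9 to 88.3 CPM in Ezh2cKO and 61.7 to 72.7 CPM in wild type in FNP. Of the 52 other pathway genes tested, 18 rose and 5 fell. Signs of other cell types and of library quality moved with the genotype. Epithelial markers summed to 7.13 to 7.46 CPM in Ezh2cKO against 2.01 to 2.87 in wild type in Mx, 6.82 to 10.1 against 3.06 to 3.55 in Md and 9.25 to 10.6 against 2.21 to 3.48 in PA2, with no overlap, and to 8.06 to 9.37 against 5.81 to 11 in FNP, where the ranges overlapped. Neuronal markers were higher without overlap in FNP (18 to 23 against 9.73 to 10.7 CPM), Md (22.1 to 24.9 against 12.3 to 14.3) and PA2 (20.4 to 24.2 against 9.86 to 12.7), and overlapped in Mx (89.7 to 249 against 138 to 159). The mitochondrial share was 24.9 to 28.3 against 21.8 to 22.6% in Mx, 25.5 to 31 against 19.9 to 24% in Md and 26.7 to 29.9 against 22.2 to 23.6% in PA2, with no overlap, while in FNP it overlapped. Neural tube markers were higher in Ezh2cKO without overlap in FNP (37.1 to 40.1 against 28 to 31.5 CPM), Mx, Md and PA2. Crest mesenchyme markers were lower without overlap in FNP (1416 to 1469 against 1502 to 1578 CPM), Mx and Md, and overlapped in PA2. Muscle and cranial mesoderm markers were lower in FNP and higher in the other places, without overlap. Early or glial crest, endothelial, erythroid and leukocyte markers also separated the genotypes in some places. The part of these differences in the result was not tested.

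Ligands with low levels in wild-type cells of E10.5 led the rises. Gdf10 was at 1.08 to 1.57 CPM in Ezh2cKO against 0.103 to 0.293 in wild type in FNP, 1.47 to 2.56 against 0.425 and 0.252 in Mx, 0.821 to 1.08 against 0 to 0.0531 in Md, and 0.544 to 0.948 against 0.0839 to 0.197 in PA2. The genotypes did not overlap in any place (adjusted p = 3.24e-09 over the 4 places), and the 3 wild-type Md libraries held 2 counts in all. Bmp3 rose by 2.64 ± 0.26 as a mean over the 4 places, but its change depended on place (edgeR's quasi-likelihood test of the interaction, adjusted p = 0.0112). In Mx it was at 7.09, 7.17 and 1.96 CPM against 0.213 and 0.0944 CPM. Bmp2 was at 2.89 to 4.49 against 1.74 to 2.18 CPM in FNP, 2.86 to 4.95 against 0.957 and 1.29 in Mx, 5.28 to 8.08 against 2.23 to 2.76 in Md, and 4.32 to 6.17 against 2.01 to 2.39 in PA2 (1.36 ± 0.10, adjusted p = 4.86e-14). It rose in each of the 4 places with no overlap. Wild-type cells of E11.5 stood at 12 to 20 CPM for Bmp2 and 2.64 to 28.7 CPM for Gdf10. Inhba rose by 1.15 ± 0.16, with FNP highest among the Ezh2cKO groups (6.68 to 9.34 CPM) and PA2 lowest in its mean (1.35 ± 0.458 CPM). Fst rose by 0.89 ± 0.13 and Tgfb2 by 0.57 ± 0.09.

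The effect of Ezh2 loss depended on place for 4 genes (Bmp7, Gdf6, Bmp3 and Tgfb2), beside 1.63% of all genes. Bmp7 rose in the 2 places where its wild-type level was lowest, to 17.2 to 19 CPM from 7.69 to 9.98 in Md (1.09 ± 0.18) and to 12.4 to 15.3 CPM from 3.19 to 4.57 in PA2 (1.89 ± 0.19). In FNP it was 62.1 ± 2.99 against 66.8 ± 9.54 CPM and in Mx 40.6 ± 2.88 against 31.5 ± 4.7 CPM. Neither passed the test, although the genotypes did not overlap in Mx (interaction adjusted p = 2.92e-06). Tgfb2 rose in PA2 (0.99 ± 0.18) and Mx (0.99 ± 0.20). Gdf6 rose in Mx (11.1 to 11.4 against 7.07 and 4.94 CPM; 0.90 ± 0.22) and had means of 17.5 ± 4.08 against 22.9 ± 3.3 CPM in Md and 8.12 ± 1.27 against 11.2 ± 0.706 CPM in PA2, without passing the test there. In single places, 5 genes were called in FNP (5 higher, 0 lower; 4.97% and 1.83% of all genes), 8 in Mx (8 higher, 0 lower; 6.85% and 3.41%), 8 in Md (7 higher, 1 lower; 6.69% and 2.18%) and 11 in PA2 (8 higher, 3 lower; 6.64% and 2.53%). The count for Mx was 2 without wild-type replicate 2 and 5 without Ezh2cKO replicate 1 or 2, that for Md 5 without Ezh2cKO replicate 1, and that for PA2 7 without wild-type replicate 1 or 2 and 5 without Ezh2cKO replicate 2. Without Mx wild-type replicate 2, the Mx calls of Tgfb2 and Gdf6 did not pass (adjusted p = 0.062 and 0.22); that wild-type group then holds 1 library, whose spread is assumed to be that of the other groups.

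The sequences of Gdf10 and Inhba show how unlike the upstream regions of genes that rose in Ezh2cKO cells can be; CpG-rich promoters are known as usual sites of Polycomb binding. They are again the 250 bases before the RefSeq start on GRCm38.p6, with each CG in capitals. The Gdf10 window is chr14:33923337-33923586 and the Inhba window chr13:16011601-16011850, both on the plus strand.
Gdf10: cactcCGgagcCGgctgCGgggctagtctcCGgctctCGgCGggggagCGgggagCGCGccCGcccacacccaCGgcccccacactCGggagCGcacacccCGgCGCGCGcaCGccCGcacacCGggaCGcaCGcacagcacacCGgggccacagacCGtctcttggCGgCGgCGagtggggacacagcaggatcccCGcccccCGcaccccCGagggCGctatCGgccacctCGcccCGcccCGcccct
Inhba: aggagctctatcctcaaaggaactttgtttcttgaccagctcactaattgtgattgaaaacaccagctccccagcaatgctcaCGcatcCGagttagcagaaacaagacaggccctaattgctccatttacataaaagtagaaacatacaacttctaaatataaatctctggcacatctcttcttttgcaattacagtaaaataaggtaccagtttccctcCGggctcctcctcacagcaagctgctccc
The Gdf10 stretch held 35 CG pairs and the Inhba stretch 3, while the median over the 32851 windows was 6 and the upper quartile 16. The 35 windows matched to the 30 genes had a median of 22, from 1 to 49.

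**Figure D4:**
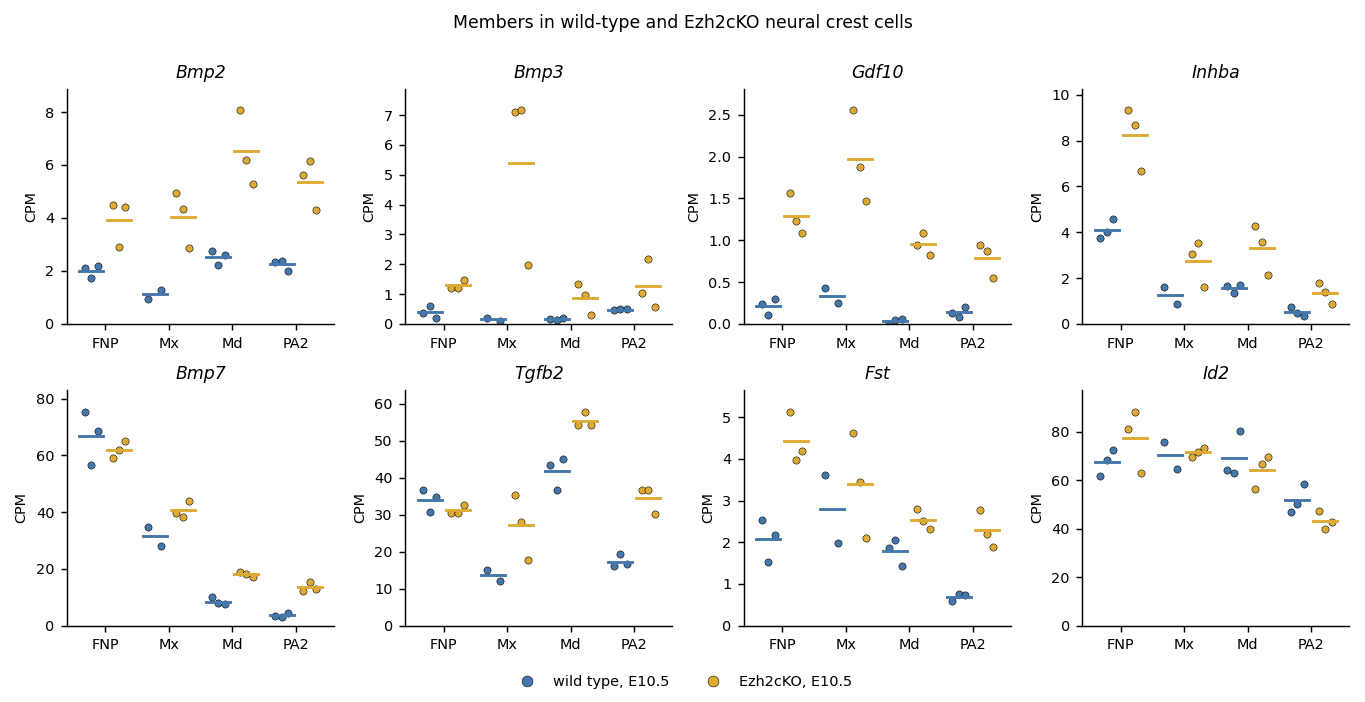
Levels in CPM for 8 genes in wild-type and Ezh2cKO cells of 4 places at E10.5; points are libraries and short lines group means, on axes from 0. Bmp2, Gdf10 and Inhba have higher means in Ezh2cKO in all 4 places. Bmp7 is higher with no overlap in Mx, Md and PA2, and passed the test in Md and PA2 only.

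In the overexpression group, Hoxa2 was at 92.8 to 124 CPM in Md, against 0.248 to 0.297 CPM in wild-type Md and 124 to 127 CPM in wild-type PA2. Of the 44 genes, 29 differed from wild-type Md (22 higher, 7 lower), beside 27.1% of all genes higher and 27.8% lower, and 29 did without HoxA2OE replicate 1. The HoxA2OE libraries had 28.5 to 45.9% mitochondrial counts against 19.9 to 24.0% in wild-type Md. Summed markers also separated the groups without overlap: endothelium 8.8 to 10.3 against 3.31 to 4.21 CPM, neural tube 29.8 to 41.3 against 20.7 to 23.9, crest mesenchyme 2057 to 2759 against 1558 to 1599, and erythroid 10.4 to 13.3 against 219 to 283. Leukocyte markers separated them as well (4.75 to 6.67 against 7.91 to 10 CPM). The part of all these signs in the result was not tested.

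All 8 receptors called were higher in HoxA2OE, among them Bmpr1a (1.30 ± 0.11), the activin receptor Acvr2a (1.13 ± 0.12) and Bmpr1b (0.94 ± 0.10). Id2 was at 297, 182 and 199 CPM against 62.9 to 80.2 CPM in wild-type Md (1.71 ± 0.16), and Smad9 at 16.7, 17.5 and 20 against 8.05 to 9.18 CPM (1.08 ± 0.16). Neither gene overlapped between the groups. Id4 rose by 2.48 ± 0.36 (10.7, 3.54 and 3.23 against 0.934 to 1.11 CPM), and by 1.71 without HoxA2OE replicate 1, the library that stood apart. Fst was at 0.396 to 0.499 CPM against 1.43 to 2.06 (-1.96 ± 0.31, adjusted p = 1.32e-06), and Bmp7 at 2.56 to 3.31 CPM against 7.69 to 9.98 (-1.53 ± 0.20, adjusted p = 2.6e-08). Both fell with no overlap. Smad7 changed by -0.84 ± 0.14, while Gdf6 was at 46.2 to 55.7 CPM against 19.3 to 25.7 (1.16 ± 0.18).

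Set beside wild-type PA2 at E10.5, HoxA2OE Md cells differed in 28 genes (22 higher, 6 lower; 27.8% and 28.3% of all genes); both contrasts share the HoxA2OE libraries, and without replicate 1 the count was 25. The HoxA2OE means of Fst, Bmp7 and Bmpr1b were 0.464, 2.93 and 136 CPM. In wild-type PA2 they were 0.693, 3.67 and 115 CPM, and in wild-type Md 1.79, 8.5 and 71.1 CPM. For these 3 genes the HoxA2OE mean lay nearer to PA2, although Bmpr1b was also called higher than in PA2 (0.24 ± 0.099). Bmper did not follow, at 7.44 to 9.27 CPM in HoxA2OE and 6.6 to 8.74 in Md against 28.9 to 30.7 in PA2 (-1.78 ± 0.11 against PA2, adjusted p = 6.58e-16). Id2, Smad9, Bambi, Gdf6 and Bmpr1a were higher in HoxA2OE than in either wild-type place. Bambi was at 49.3 to 67.2 CPM against 30.2 to 33.2 in Md and 12.9 to 16.4 in PA2. Gdf6 had means of 51.1 CPM in HoxA2OE, 22.9 in Md and 11.2 in PA2. Those of Bmpr1a were 710, 288 and 328 CPM in the same order. The mitochondrial share was 28.5 to 45.9% in HoxA2OE and 22.2 to 23.6% in wild-type PA2. Erythroid markers were lower in HoxA2OE (10.4 to 13.3 against 175 to 423 CPM). Crest mesenchyme (2057 to 2759 against 1174 to 1305) and endothelial markers (8.8 to 10.3 against 2.8 to 3.15) were higher. Of the other lists, only epithelial markers overlapped. The part of these signs in the differences from PA2 was not tested.

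In the temporal knockout, Hoxa2 was at 176 to 195 CPM against 268 to 269 CPM in Control, a difference that did not pass the test (adjusted p = 0.503), and wild-type PA2 of E11.5 stood at 183 to 199 CPM. The counts thus do not show Hoxa2 below its wild-type level in the libraries labelled Hoxa2TempMut; whether they cover the deleted part is not given in the labels. Of the 44 genes, 3 differed between Hoxa2TempMut and Control in PA2 at E11.5, 2 higher and 1 lower, beside 0.258% of all genes higher and 0.365% lower. Fst was at 6.93, 7.49 and 7.07 CPM in the mutant and 2.55, 2.65 and 2.35 in Control (1.51 ± 0.21, adjusted p = 9.88e-06). Gdf6 was at 5.38, 7.64 and 5.68 against 2.33, 3.21 and 3.54 CPM (1.04 ± 0.21, adjusted p = 0.00384), and Bmp5 at 14, 17.8 and 19.4 against 23.8, 30.9 and 26.7 CPM (-0.67 ± 0.16, adjusted p = 0.0315). The groups did not overlap for any of the 3. Fst was thus lower in the overexpression group and higher in the libraries labelled Hoxa2TempMut, each against its own reference group, while Gdf6 was higher in both. Without mutant replicate 2, only Fst was called; Gdf6 was also lost without Control replicate 1, and Bmp5 without mutant replicate 1 or Control replicate 2 or 3. Of the 52 other pathway genes tested, 2 differed: Grem1, at 4.82, 5.2 and 6.66 CPM in the mutant and 13.2, 21.2 and 23.6 in Control (-1.80 ± 0.25), and Rgmb (-0.88 ± 0.12), both lower. Neuronal markers summed to 12.6 to 13.3 CPM in the mutant and 16.2 to 17.3 in Control. Epithelial markers summed to 5.1 to 5.78 and 6.8 to 9.16 CPM, and the other marker lists overlapped. The mitochondrial share was 19.8 to 23.9% in the mutant and 19.6 to 20% in Control. The part of these signs in the result was not tested.

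Control itself differed from wild-type PA2 of the same stage in 11 of the 44 genes (25%), 7 higher and 4 lower. Over all genes the share was 22.1%, with 10.1% higher and 12% lower, so the 44 genes stood near it. Fst was at 2.35 to 2.65 CPM in Control and 0.707 to 1.43 in wild type (1.33 ± 0.25), Gdf5 at 2.04 to 2.6 against 6.1 to 6.48 CPM (-1.44 ± 0.26), and Id3 at 19.7 to 25.8 against 34.8 to 42.8 CPM (-0.80 ± 0.15). The count was 6 without wild-type replicate 3, 7 without Control replicate 2 and 7 without Control replicate 3. Endothelial markers summed to 4.99 to 6.92 CPM in Control and 11.4 to 13.6 in wild type. Crest mesenchyme markers were also lower in Control, at 2007 to 2137 against 2259 to 2469 CPM. Neuronal (16.2 to 17.3 against 9.67 to 11.9 CPM) and leukocyte markers (12.5 to 16.9 against 7.03 to 8.67) were higher. Epithelial, early or glial crest, and muscle and cranial mesoderm markers were higher as well. None of these ranges overlapped, while those of neural tube and erythroid markers did. The mitochondrial share was 19.6 to 20% in Control and 15.4 to 18% in wild type. The part of these signs in the differences was not tested.

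**Figure D5:**
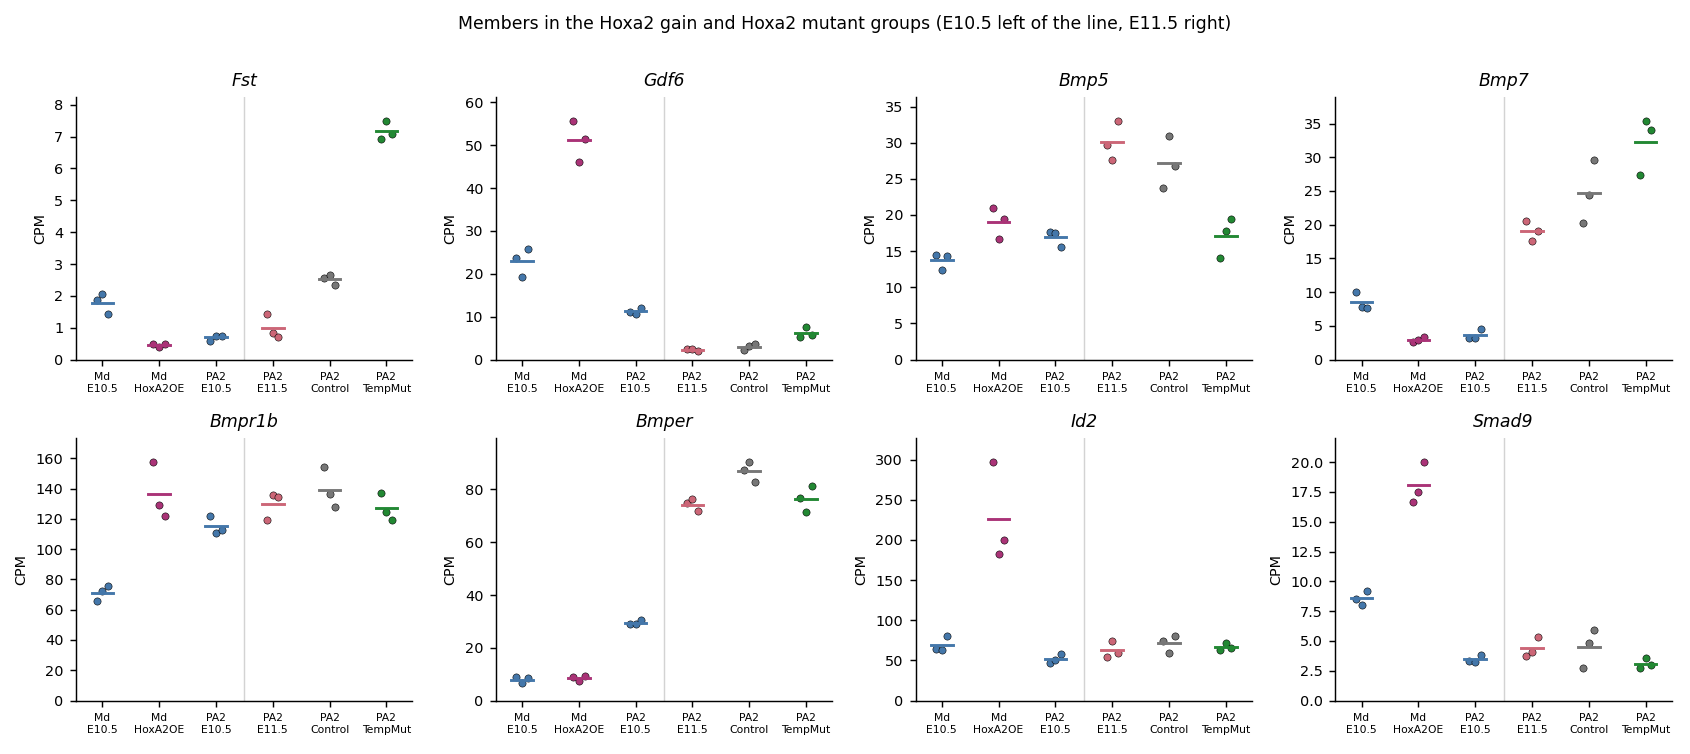
Levels in CPM for 8 genes in wild-type Md, HoxA2OE Md and wild-type PA2 at E10.5 and in wild-type, Control and Hoxa2TempMut PA2 at E11.5; points are libraries and short lines group means. Fst has its lowest mean in HoxA2OE and its highest in the mutant among these 6 groups, and the Bmper libraries of HoxA2OE all lie below those of PA2.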

How the data were processed

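RNA-seq libraries came from 47 samples of sorted mouse cranial neural crest cells. The authors deposited raw read counts per gene for 38215 genes; per the submitters' processing notes, bcl2fastq 2.17 and build GRCm38 (mm10) were used, and no aligner, counting tool or annotation release is named in the sources used here. Libraries were not stranded, per the labels' protocols, so reads of overlapping or antisense genes cannot be told apart. In the table, 22 column names occurred 2 times with identical values, and each was used once.

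All 16 groups were fitted together in edgeR 4.0.16 (R 4.3.3) with TMM scaling, a filter by group (minimum count 10, minimum total 15) that kept 20560 genes, and the quasi-likelihood test with 31 residual degrees of freedom. P-values were adjusted by Benjamini-Hochberg over all genes within each comparison, and a gene was called at an adjusted p under 0.05. Levels (CPM) are counts scaled to a TMM-adjusted total of 1e6 over the filtered genes. Fold changes are log2, with standard errors derived from the F statistic. The fit was tested on simulated data. Alternatives were DESeq2 1.42.0 (size factors or test), no filter, no mitochondrial genes, only the groups compared, a replicate block, and each library left out.

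Genes were named with a fold if called and among the 8 largest changes with a level of 5 CPM or more in the higher group, or to describe a role in turn; other named genes were chosen after their values were seen. The members, the other pathway genes and the marker lists were chosen with earlier results of these data known. Promoter windows came from RefSeq (GRCm38.p6).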

Additional observations from a re-analysis of the deposited data

Results flagged for a closer look

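These results differed between places by a test of the difference itself, edgeR's quasi-likelihood test with Benjamini-Hochberg adjustment over all genes. For the change from E10.5 to E11.5, the ligands were Bmp4 (adjusted p = 6.9e-10), Gdf6 (5.87e-08), Bmp7 (1.85e-05), Bmp5 (0.00168), Gdf5 (0.00565), Bmp2 (0.0193), Bmp6 (0.0237) and Bmp3 (0.0355). The receptors were Bmpr1b (3.1e-08), Tgfbr3 (1.17e-07), Tgfbr2 (0.000697) and Tgfbr1 (0.0137). Among Smads and response genes they were Smad9 (6.96e-08), Bambi (8.39e-08), Smad7 (8.68e-07), Id1 (4.6e-05), Id2 (4.62e-05), Smad1 (0.000303), Smad6 (0.00166) and Id3 (0.00478). The extracellular regulators were Chrdl1 (6.77e-09), Fst (4.96e-05) and Bmper (0.029). For the effect of Ezh2 loss at E10.5, the genes were Bmp7 (2.92e-06), Gdf6 (0.00725), Bmp3 (0.0112) and Tgfb2 (0.0116). Without FNP replicate 3 of E11.5, which stood apart, the count for the change between stages was 21 in place of 23.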

How the results depend on the processing

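No call on a single gene changed sign under any alternative that was run. Of 467 calls on single genes, 11 were lost with DESeq2's size factors, 4 with DESeq2's test, 17 without the filter on low counts, 4 without mitochondrial genes, 25 when only the groups compared entered the fit, and 93 without at least 1 library; the cause was not tested. The number of pathway genes called for Ezh2cKO was 8 in place of 5 in FNP with DESeq2's test and 13 in place of 8 in Md when only the groups compared entered the fit. With only those groups, 21 genes differed between HoxA2OE and wild-type Md in place of 29. Over all genes, the same setting gave 6355 calls in place of 11277 for HoxA2OE against Md, 6610 in place of 11529 against PA2, 3145 in place of 1885 for Ezh2cKO in PA2, 272 in place of 128 for Hoxa2TempMut, and 543 in place of 335 for the Ezh2 effect by place, which DESeq2's test put at 523. The share of higher calls for Ezh2cKO over the 4 places was 52.4% of all calls, and 65.7% without the filter.

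Leaving out 1 library at a time gave these ranges of pathway genes called. For position at E10.5 they were 22 to 25 over all places, 15 to 20 in FNP, 6 to 9 in Mx, 6 to 10 in Md and 13 to 18 in PA2, and at E11.5 32 to 33, 28 to 30, 16 to 20, 12 to 18 and 24 to 26. For E10.5 against E8.5 the range was 37 to 40, for E11.5 against E10.5 36 to 38 over the 4 places, 33 to 36 in FNP, 26 to 30 in Mx, 28 to 32 in Md and 25 to 26 in PA2, and for the change by place 20 to 24. For Ezh2cKO it was 19 to 24 over the 4 places, 4 to 5 in FNP, 2 to 7 in Mx, 5 to 9 in Md, 5 to 9 in PA2 and 3 to 5 for the effect by place. It was 26 to 32 for HoxA2OE against Md, 24 to 27 against PA2, 1 to 3 for Hoxa2TempMut and 6 to 9 for Control against wild type.

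Replicate numbers recur across groups. Same-numbered libraries had a mean correlation of deviations of 0.017, with 61 of 345 pairs over 0.1, and different-numbered libraries a mean of -0.008. Of 47 libraries, 25 correlated best with their own number. These values do not settle whether the numbers pair libraries, and the main fit did not pair them. With a replicate block, 38 genes changed between E10.5 and E11.5, 21 in Ezh2cKO over the 4 places and 29 in HoxA2OE, and 1 single call was lost.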
